A study of Mus musculus with 4 samples.

Results

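Malat1, Neat1, Miat, Snhg11, Gas5, Snhg1, Rmst and Pantr1 are 8 long noncoding RNAs that are best known from the nucleus or as hosts of small nucleolar RNAs (snoRNAs), and they were followed here in RNA purified with tagged ribosomes from CA1 neurons of sleep deprived (SD) and non-sleep deprived (NSD) mice. They were found by gene name among the 28193 genes of the count table, where each has 1 entry, and all 8 had enough counts to be tested. The mice were male C57BL/6J animals aged 3 to 5 months that had received 2 viral vectors in the hippocampus at 10 to 12 weeks of age, AAV8 carrying the 4-hydroxytamoxifen-dependent recombinase ERT2-Cre-ERT2 under the Fos promoter and AAV9 carrying a Cre-dependent, HA-tagged ribosomal protein Rpl22 under the EF1a promoter. Both groups received 4-hydroxytamoxifen at ZT2 of a first SD of 5 h on day 0, so that neurons active in that window carry the tag in NSD and SD mice alike. On day 7 the SD group was sleep deprived for 5 h by gentle handling and the NSD group was left undisturbed, tissue was taken at ZT5, and 5 mice were pooled for each of 2 libraries per group, numbered by the batch that the labels give. The labels describe the source as dorsal hippocampus of cFos-Cre:Ribotag genotype, while the methods describe CA1 dissected from virus-injected mice. The tag depends on Fos promoter activity, viral spread and drug exposure, so the cells that carry it are those that recombined and not CA1 as a whole. No input RNA and no pull-down without a tag was analysed here.

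The 4 libraries held between 153511705 and 195910235 counts, and between 26043 and 27448 genes with at least 1 count. With 2 pools per group, the spread between pools and not the depth sets the precision, and a CPM value is given as mean ± standard deviation over n = 2 libraries, a log2 difference as estimate ± standard error (SE). The CA1 pyramidal markers summed to between 7964 and 8755 CPM, the TMM-scaled share of a library's counts in a gene, in each library. None was at 0, and edgeR called none of the 10 different between groups. DESeq2 called 4 of them lower in SD, where it called 5.8% of all genes lower. A fit with the batch number as a block also called 4 lower, against 8.47% of all genes. Astrocyte markers were also plentiful, at 3182 to 3786 CPM in sum, and oligodendrocyte lineage markers reached 1620 to 1955 CPM. The RNA therefore was not free of glial transcripts in either group.

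Malat1 is an abundant RNA of nuclear speckles, the bodies that store splicing factors, and Neat1 is the RNA scaffold of paraspeckles. Miat, also called Gomafu, is a spliced RNA of neurons that stays in the nucleus and carries repeats resembling the intron branch point. Gas5 and Snhg1 are spliced carriers from whose introns snoRNAs are cut, and their exons hold only short reading frames, so that a ribosome that reaches them stops early and the RNA becomes a substrate of nonsense-mediated decay. Snhg11 is a snoRNA host that is abundant in neurons, Rmst is known for its part in neurogenesis with Sox2, and Pantr1 starts beside Pou3f3, a gene of upper-layer and hippocampal neurons. A nuclear RNA is not a usual ribosome template, so a CPM value below means the level in the purified RNA, by whichever route the RNA came to be there.

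In the table's GRCm39 coordinates, Malat1 lies on chromosome 19 from 5845718 to 5852700 on the minus strand and Neat1 on the same strand from 5874736 to 5895506, 22035 bases away. In the GENCODE annotation of that build each is transcribed as 1 exon in its main transcript, of 7886 and 22397 bases. Miat covers chromosome 5 from 112361094 to 112377261 on the minus strand, with 7 exons and 9163 bases in its main transcript. Snhg11 covers chromosome 2 from 158217558 to 158228071 on the plus strand, with 5 exons, and encloses 2 snoRNA genes. The count table puts Snhg11 among protein-coding genes and GENCODE puts it among lncRNAs. Gas5, on chromosome 1 from 160861992 to 160866109 on the plus strand, has 11 exons that make a main transcript of only 669 bases, and encloses 10 snoRNA genes. Snhg1, on chromosome 19 from 8700839 to 8703807 on the plus strand, has 10 exons, a main transcript of 1130 bases and 8 enclosed snoRNA genes. Rmst spans chromosome 10 from 91906899 to 92001032 on the minus strand with 15 exons and encloses 2 microRNA genes, Mir1251 and Mir135a-2. Pantr1 spans chromosome 1 from 42629942 to 42734002 on the minus strand with 4 exons. The longest open reading frame in the main transcripts was 41 codons in Gas5, 54 in Snhg1, 69 in Rmst, 76 in Pantr1, 89 in Snhg11, 98 in Miat, 104 in Malat1 and 129 in Neat1.

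The Miat repeat is shown because the sequence sets this RNA apart from the other members. The motif ACTAAC, searched on the sense strand, occurred 11 times in the main Miat transcript and 4 times in that of Neat1, and at most 1 time in each of the other members. Among 2559 lncRNA genes of the table with a main transcript of at least 1000 bases, 11 was the largest count, and 0.703% had at least Miat's density of 1.2 copies per kilobase. The 151 bases below lie in the last of its 7 exons, with ACTAAC in capitals.
Miat exon 7, GRCm39 chr5:112365175-112365325, minus strand: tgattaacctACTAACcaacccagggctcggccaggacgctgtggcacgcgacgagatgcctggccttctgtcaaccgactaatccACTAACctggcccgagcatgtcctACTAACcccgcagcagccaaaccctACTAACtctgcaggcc

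RefSeq promoter windows were matched for 5 of the 8 genes. Gas5 had 2 such windows, and the matches given for it are those of the printed window only. The 200 bases printed run from 160 before the RefSeq start to 40 from it. Their coordinates are those of GRCm38.p6, which differ from those of the count table. They are shown so that the snoRNA hosts can be compared with the nuclear RNAs at the start site. Capitals mark TGACG on either strand, the core of the cAMP response element bound by CREB, and the first 5 transcribed bases where these are a C followed by 4 pyrimidines, the start of the terminal oligopyrimidine tracts of ribosomal protein and snoRNA host genes.
Malat1 promoter, GRCm38.p6 chr19:5802633-5802832, minus strand: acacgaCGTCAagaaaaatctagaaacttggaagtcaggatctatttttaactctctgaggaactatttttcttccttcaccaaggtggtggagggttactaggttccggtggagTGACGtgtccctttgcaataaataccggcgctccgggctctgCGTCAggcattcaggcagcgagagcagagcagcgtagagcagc
Miat promoter, GRCm38.p6 chr5:112228909-112229108, minus strand: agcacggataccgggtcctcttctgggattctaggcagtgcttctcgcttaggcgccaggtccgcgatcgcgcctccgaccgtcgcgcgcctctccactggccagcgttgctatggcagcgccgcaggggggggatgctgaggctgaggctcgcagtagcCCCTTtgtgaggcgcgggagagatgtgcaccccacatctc
Snhg11 promoter, GRCm38.p6 chr2:158375553-158375752, plus strand: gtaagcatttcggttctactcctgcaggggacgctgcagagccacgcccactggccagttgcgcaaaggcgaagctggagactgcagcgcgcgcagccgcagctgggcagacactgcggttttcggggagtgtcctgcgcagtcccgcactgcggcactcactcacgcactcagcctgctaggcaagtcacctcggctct
Gas5 promoter, GRCm38.p6 chr1:161035006-161035205, plus strand: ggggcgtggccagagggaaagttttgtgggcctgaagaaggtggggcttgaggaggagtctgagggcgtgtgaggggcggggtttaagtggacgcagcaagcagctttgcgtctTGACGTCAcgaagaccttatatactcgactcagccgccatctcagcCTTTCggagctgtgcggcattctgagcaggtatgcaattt
Snhg1 promoter, GRCm38.p6 chr19:8723327-8723526, plus strand: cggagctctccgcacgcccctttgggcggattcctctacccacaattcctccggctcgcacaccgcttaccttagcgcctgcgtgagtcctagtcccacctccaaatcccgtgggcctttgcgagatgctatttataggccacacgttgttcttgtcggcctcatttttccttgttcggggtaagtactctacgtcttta
Motif matches and shares were taken over the whole RefSeq windows, which are longer than the stretches printed. Gas5 held the full palindrome TGACGTCA, present in 1.79% of the 32851 RefSeq windows used, which gives a TGACG match on each strand. Malat1 held TGACG 3 times, and at least 1 copy occurred in 20.8% of windows. Gas5 began with CTTTC and Miat with CCCTT, a kind of start found at the first base in 2.51% of windows. TATAA, searched on both strands, lay in the windows of Gas5 and Snhg1 and in 24.9% of all, and the E-box CACGTG, present in 7.15%, was in none of the 5. These matches describe letters in a window and no measurement of a factor was made.

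Miat, Neat1 and Snhg11 were lower in SD than in NSD, by 2.42-fold, 2.54-fold and 2.99-fold, and no member was called higher, where 0.77% of all genes were. The 3 calls among 8 members compare with 2.33% of all 22338 genes tested that were called lower, and with 4.18% of the 2610 lncRNA genes tested. In 6 of the 8 the higher SD library was still below the lower NSD library, an arrangement that 27.5% of all genes and 44.8% of lncRNA genes had, and in 1 of the 8, Pantr1, the order was the opposite, as in 22.0% of all genes. The median log2 change was -0.94 over the members, -0.02 over all genes, -0.36 over lncRNA genes and 0.02 over protein-coding genes. In the fit with the batch number as a block, Malat1 and Gas5 were also called, which made 5 members lower against 8.47% of all genes and 14.7% of lncRNA genes. DESeq2 called 4 members lower, against 5.8% of all genes. The calls also depended on the count filter, with 1 member called when no filter was used and 0 with edgeR's filterByExpr. In pooled tissue, fewer cells of a type and less RNA per cell cannot be told apart.

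**Figure D1:**
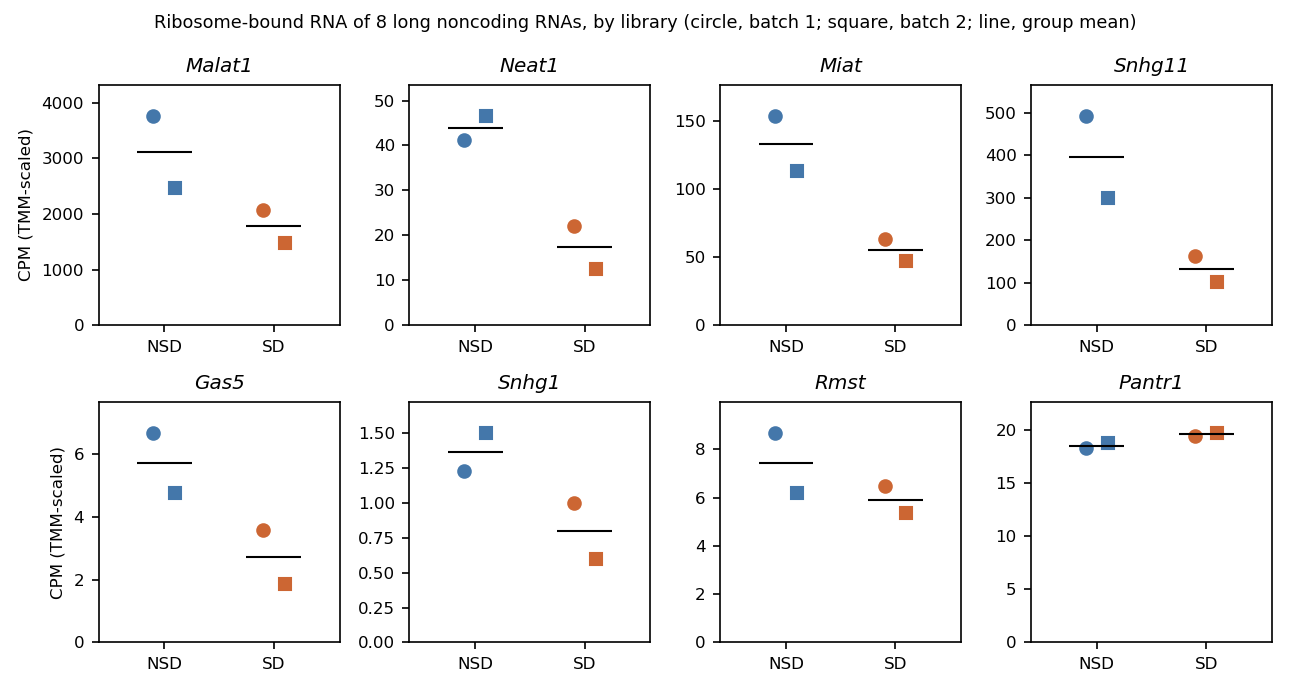
Level of each long noncoding RNA in the 4 libraries, in TMM-scaled CPM, with NSD libraries in blue and SD libraries in orange. The axis is linear and has its own scale for each RNA. The SD points lie below both NSD points for 6 of the 8 RNAs, overlap them for Rmst and lie slightly above them for Pantr1.

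Among the nuclear RNAs, Malat1 was by far the most abundant, at 3763 CPM in NSD 1, 2464 in NSD 2, 2075 in SD 1 and 1483 in SD 2. Every SD library was below every NSD library, but the gap between NSD 2 and SD 1 was smaller than the gap between the 2 NSD pools. The group means were 3113 ± 919 CPM in NSD and 1779 ± 418 CPM in SD. The difference of -0.81 ± 0.22 (log2, SE) did not pass the edgeR quasi-likelihood test, with an adjusted p of 0.0877 and an interval of -1.31 to -0.30 before adjustment. With the batch as a block the adjusted p was 6.76e-05 and the call was made. Over the 12 alternatives the adjusted p ran from 6.76e-05 to 0.283, the highest when NSD 1 was left out, and Malat1 was 0.86 lower in batch 1 and 0.73 lower in batch 2 on the log2 scale.

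Neat1 was at 41.2 CPM in NSD 1, 46.6 in NSD 2, 22.0 in SD 1 and 12.6 in SD 2. The groups were well apart, and NSD 2, not NSD 1, was the highest library, the reverse of the order in Malat1. The mean fell from 43.9 ± 3.83 CPM in NSD to 17.3 ± 6.66 CPM in SD, a log2 difference of -1.34 ± 0.21 (SE) with an edgeR adjusted p of 0.0363. The call was lost with no count filter, at 0.0507, and with filterByExpr, at 0.0628, and over the alternatives that kept all 4 libraries the adjusted p ran from 8.06e-05 to 0.0628. The difference was -0.90 within batch 1 and -1.89 within batch 2, since SD 2 was much lower than SD 1. Frmd8, the nearest protein-coding gene on the far side of Neat1, was at a log2 difference of 0.00 and was not called.

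Miat differed almost equally in both batches, at 154 CPM in NSD 1, 113 in NSD 2, 63.4 in SD 1 and 47.0 in SD 2. Both SD libraries were far below both NSD libraries, and the log2 difference was -1.28 within batch 1 and -1.27 within batch 2. The mean fell from 134 ± 28.8 to 55.2 ± 11.6 CPM, a log2 change of -1.27 ± 0.17 (SE), with an edgeR adjusted p of 0.0328. With filterByExpr the call was lost at 0.0628, the highest value over the alternatives that kept all 4 libraries, of which the lowest was 2.11e-08. Gm26953 overlaps Miat on the other strand, at 0.00278 times its mean CPM.

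Snhg11, the snoRNA host with the highest level among the members, stood at 493 CPM in NSD 1, 300.2 in NSD 2, 163 in SD 1 and 102 in SD 2. The groups did not overlap, although the 2 NSD pools themselves differed widely. The mean fell from 397 ± 137 CPM in NSD to 133 ± 42.8 CPM in SD, which is 33.4% of the NSD level. Its log2 difference was -1.58 ± 0.26 (SE), with an edgeR adjusted p of 0.0363, and it was -1.60 within batch 1 and -1.55 within batch 2. The call was lost with no count filter, at 0.0511, and with filterByExpr, at 0.0628, and the lowest adjusted p over the alternatives with all 4 libraries was 2.11e-08. Snhg17, the snoRNA host nearest to it, 14057 bases away on the other strand, was at -0.78 with an edgeR adjusted p of 0.196, and the next gene on the right, Ralgapb, was at 0.10 with 0.605.

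Gas5, whose exons code for no known protein and whose introns carry its snoRNAs, was at 6.67 CPM in NSD 1, 4.75 in NSD 2, 3.60 in SD 1 and 1.87 in SD 2. The groups did not overlap, with NSD 2 and SD 1 the closest pair. The log2 difference of -1.06 ± 0.30 (SE) had an edgeR adjusted p of 0.0946, so that it was not called. It was called with the block, at an adjusted p of 0.000488, and by DESeq2, at 0.0072, and over the 12 alternatives the adjusted p ran from 3.38e-08 without SD 1 to 0.275 without NSD 1. Zbtb37 overlaps Gas5 on the opposite strand with 17.0 times its mean CPM, and since the sources used here do not say whether counting used strand, part of the Gas5 count could belong to it. Zbtb37 itself was at 0.24 on the log2 scale, with an edgeR adjusted p of 0.182.

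Snhg1 had the fewest counts of the members, 204 in NSD 1, 236 in NSD 2, 181 in SD 1 and 113 in SD 2, or 1.23, 1.50, 1.00 and 0.598 CPM. Both SD libraries were below both NSD libraries, with SD 2 well apart from the rest. The log2 difference of -0.77 ± 0.34 (SE) was not called by edgeR, at an adjusted p of 0.262, nor with the block, at 0.112, and over the 12 alternatives it ran from 0.0512 to 0.782. The difference was -0.29 within batch 1 and -1.31 within batch 2. Slc3a2, a transporter subunit gene that begins 105 bases away on the other strand, was at -0.08 and not called.

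Rmst and Pantr1, the RNAs known from neural development, were the members whose SD libraries did not both lie below NSD. Rmst was at 8.67 CPM in NSD 1, 6.20 in NSD 2, 6.49 in SD 1 and 5.35 in SD 2. Its groups overlapped, and the log2 difference of -0.33 ± 0.18 (SE) had an edgeR adjusted p of 0.392, with an interval of -0.75 to 0.09. Without NSD 1 the difference was -0.04. Pantr1 was at 18.3 and 18.7 CPM in NSD and 19.4 and 19.7 CPM in SD. Its 4 libraries were nearly level, the log2 difference was 0.08 ± 0.08 (SE) with an edgeR adjusted p of 0.674, and its interval, -0.10 to 0.26, lay apart from that of Miat, -1.65 to -0.89. Pou3f3, 82 bases from Pantr1 on the other strand, was at 0.14 with an edgeR adjusted p of 0.353.

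**Figure D2:**
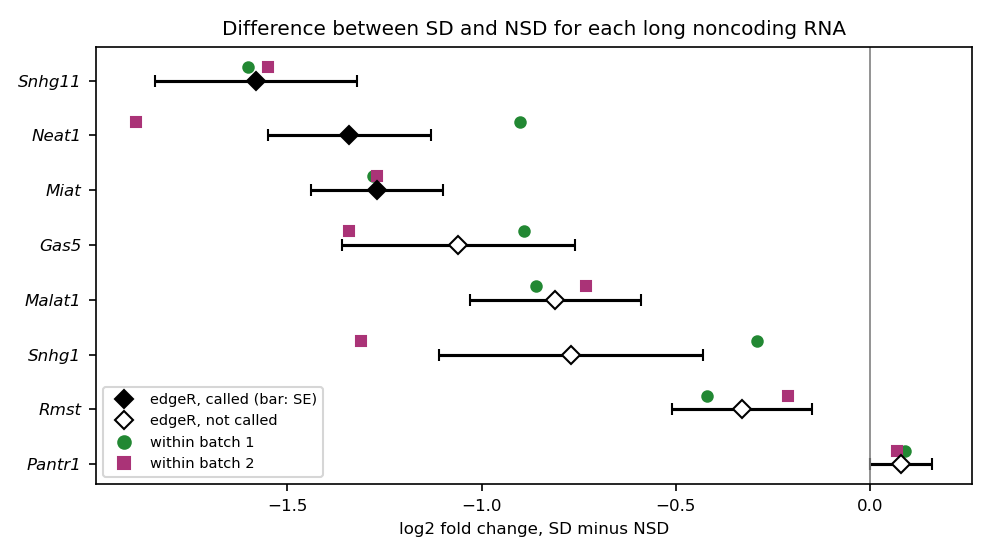
Log2 fold change of SD against NSD for the 8 RNAs, with diamonds for the edgeR estimate and bars for its standard error over 2 libraries per group, filled where called. Circles and squares give the differences within batch 1 and batch 2, which nearly coincide for Snhg11, Miat and Pantr1 and lie apart for Neat1 and Snhg1.

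The order NSD 1, NSD 2, SD 1, SD 2 from high to low was that of 4 members, Malat1, Miat, Snhg11 and Gas5. In 7 of the 8 the lowest library was SD 2, and in 5 the highest was NSD 1, the exceptions being Neat1, Snhg1 and Pantr1. Within each batch, SD was below NSD for 7 members. By the edgeR estimate over both batches 7 of the 8 were below 0, as were 52.8% of all genes and 72.5% of lncRNA genes. The shares of all genes with these library orders were not computed. The 2 SD pools themselves were ordered, with SD 2 below SD 1 for the same 7 members.

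To order the levels, CPM was divided by the length of the exons of each gene in kilobases. In NSD, Malat1 had a mean of 395 ± 116 CPM per kilobase, Snhg11 46.5 ± 16.0 and Miat 12.7 ± 2.73. These 3 were separate from each other in every library. The NSD means per kilobase were then 2.07 for Pantr1, 1.96 for Neat1, 1.35 for Gas5, 0.891 for Rmst and 0.391 for Snhg1. Pantr1 and Neat1 were not separated in NSD, where the values were 2.04 and 2.09 for Pantr1 and 1.84 and 2.08 for Neat1. In SD they were clearly apart, at 2.17 and 2.20 CPM per kilobase for Pantr1 and 0.983 and 0.562 for Neat1. This depends on the length used, since per kilobase of the longest transcript Pantr1 was at 6.16 and Rmst at 2.57 in NSD, both above Neat1 at 1.96. By exon length the order was the same in 3 of the 4 libraries, and in SD 2 Rmst, at 0.641, lay above Neat1, at 0.562, and Gas5, at 0.443. Malat1 made up 0.383% and 0.252% of the NSD libraries and 0.206% and 0.143% of the SD libraries, which is most of the share of all 8.

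The 18 tested genes that overlap a member or lie next to it, other than members, were taken by the coordinates of the count table. None was called by edgeR, 2 had an unadjusted p under 0.05, DESeq2 called 0 and the fit with the block called 1, Snhg17. By the longer GENCODE extents Pantr2 and Gm20646 also overlap Pantr1, which was looked up after their values were known. Pantr2, on the same strand, was at -1.25 with an edgeR adjusted p of 0.0895, and it was called lower by DESeq2, at 0.0268, and with the block, at 0.0248. Gm20646 was at -0.11 and was not called by any of the 3. The 8 protein-coding neighbours with a mean of at least 5 CPM had log2 differences between -0.08 and 0.24.

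Related genes were grouped by function. Among 21 tested entries of noncoding snoRNA hosts, which include Snhg11, Gas5 and Snhg1, edgeR called only Snhg11 lower and none higher, DESeq2 called Snhg11, Gas5 and Dleu2 lower, and the 18 others had a median log2 difference of -0.20. With the block, 7 of the 21 were lower, where that fit called 8.47% of all genes and 14.7% of lncRNA genes lower. Dleu2, which is in that list and is also a host of microRNAs, was at -1.12 with an edgeR adjusted p of 0.0562, and the fit with the block called it as well. Protein-coding snoRNA hosts, of which 35 were tested, had a median of 0.05 and 0 calls by edgeR, with 4 at an unadjusted p under 0.05. DESeq2 called 1 of them higher, where it called 3.0% of all genes higher, and the fit with the block called 1 higher and 1 lower. In that list Ncl, the gene of nucleolin, was at 0.33 with an edgeR adjusted p of 0.0554, and Taf1d at -0.60 with 0.155.

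Of 19 other lncRNAs listed for the nucleus, 6 were lower in SD by edgeR and none was higher, with a median of -0.34. They were Kcnq1ot1, the antisense RNA of the Kcnq1 imprinted domain, at -1.58 (adjusted p 0.0328), Meg3, a maternally expressed RNA, at -1.07 (0.0397), and Ftx, a gene of the X-inactivation centre, at -1.08 (0.0476). Firre, which acts in the nuclear architecture of X-linked loci, was at -0.90 (0.0397), and the host genes of brain microRNAs Mir124a-1hg and Mir9-3hg were at -1.44 (0.0451) and -0.51 (0.0385). Norad and Oip5os1, which are in the list but are known mainly from the cytoplasm, stood at 0.41 and 0.42 with edgeR adjusted p of 0.0974 and 0.114. With the block, 10 of the 19 were lower, against 8.47% of all genes and 14.7% of lncRNA genes, and Norad and Oip5os1 were higher, against 2.99% of all genes. DESeq2 called 5 lower and 2 higher, and Ftx and Mir124a-1hg were not among its calls.

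The genes of proteins that work with these RNAs followed. Of 15 paraspeckle protein genes, 1 was called lower and none higher, Ewsr1, an RNA-binding protein, was at -0.19 (edgeR adjusted p 0.164), and the median was -0.05. Of 17 nuclear speckle genes, the splicing factors Srsf5 and Srsf11 were lower at -0.60 (0.0328) and -0.37 (0.0472), and Pnn, a speckle protein that is also known from cell junctions, was higher at 0.41 (0.0481). Among 15 factors of nonsense-mediated decay, the pathway that degrades Gas5 and Snhg1, Upf2 was higher at 0.50 (0.0328), Smg6 was at 0.34 (0.0666) and none was called lower, with a median of 0.07. DESeq2 called 2 of the 15 higher, Upf2 and Smg6, against 3.0% of all genes, and the block 3, with Rbm8a, against 2.99%. Of 76 ribosomal protein genes tested, Rps15a was higher at 0.35 (0.0385), Rpl10a was at -0.53 (0.160), edgeR called none lower and the median was 0.02. The fit with the block called 1 of the 76 higher and 1 lower, and DESeq2 called 1 higher. Only 1 of 4 snoRNA genes found by symbol was tested, and the snoRNAs made from these hosts were not analysed here.

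**Figure D3:**
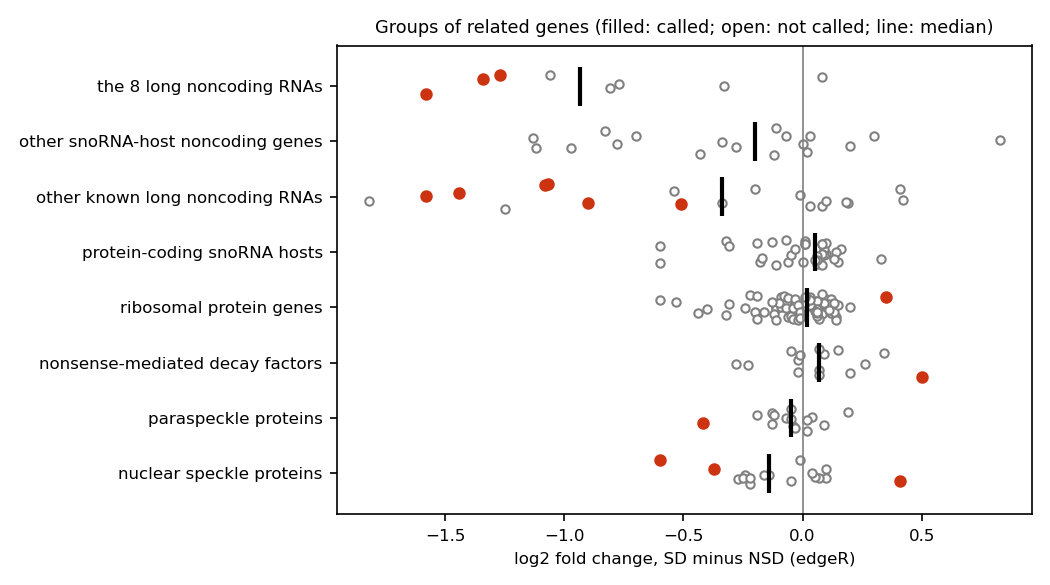
Log2 fold change of SD against NSD for every tested gene of the functional lists, with the called genes marked and the list median as a line. The filled points on the low side are 3 of the 8 RNAs, 6 other lncRNAs, 1 paraspeckle protein gene, Srsf5 and Srsf11, and the medians of the lists of protein-coding genes lie between -0.14 and 0.07.

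Other measures moved with the members. Genes of the class TEC, loci whose coding status awaits experimental test, made up 0.273% and 0.210% of the NSD libraries and 0.157% and 0.118% of the SD libraries, with a median log2 difference of -1.51 over 1663 tested. These 4 libraries had the same order in Malat1, Miat, Snhg11 and Gas5. All other lncRNA genes together made up 1.13%, 0.961%, 1.03% and 0.911% in that order of libraries and did not separate the groups. Mitochondrial genes made up 0.237%, 0.259%, 0.231% and 0.211%. The part of unspliced or nuclear RNA in the members' differences was not tested.

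**Figure D4:**
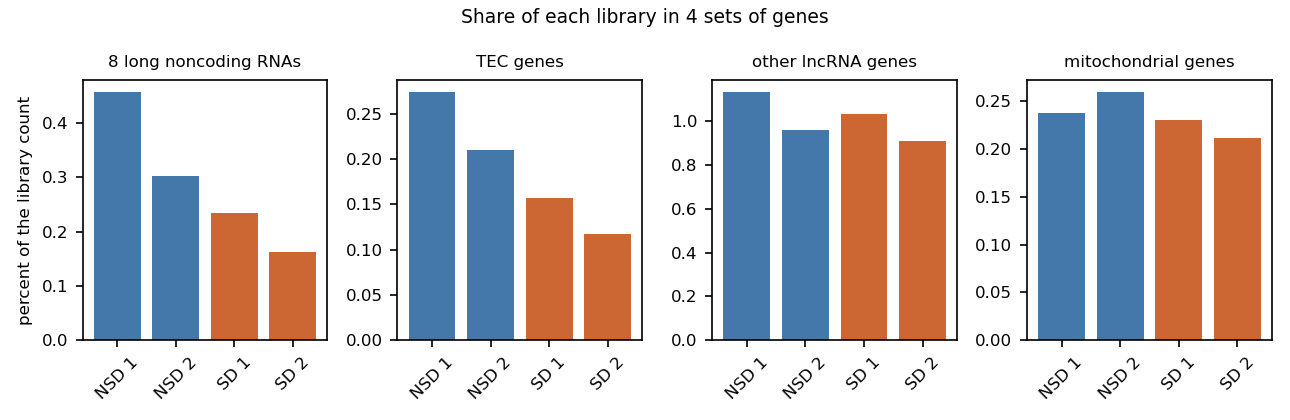
Percent of the library count in the 8 long noncoding RNAs, TEC genes, other lncRNA genes and mitochondrial genes, 1 bar per library from 0. The first and second panels fall in the same order from NSD 1 to SD 2, whereas the other lncRNA genes do not separate the groups.

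The endothelial markers summed to 46.2 and 63.9 CPM in NSD 1 and NSD 2 and to 37.3 and 23.9 CPM in SD 1 and SD 2, the library order of Neat1 and Snhg1. Their median log2 difference was -0.86, all 8 were below 0 and none was at 0 counts. Of these, edgeR called 0, DESeq2 4 lower and the fit with the block 6 lower. The last 2 fits called 5.8% and 8.47% of all genes lower. Of the 10 CA1 pyramidal markers, DESeq2 and the fit with the block each called 4 lower. Microglial markers summed to 102 and 82.4 CPM in NSD and 102 and 78.9 CPM in SD, and GABAergic markers to 883 and 841 CPM in NSD and 867 and 775 CPM in SD. The part of other cell types in the results was not tested.

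The genes whose profile over the 4 libraries was nearest to each member were found among 11058 genes with a mean over 5 CPM, by the Euclidean distance between centred log2 CPM values. Nearest to Snhg11 were Kcnq1ot1 at a distance of 0.16 and 9530059O14Rik at 0.17, and nearest to Miat were Spaca6 at 0.10 and Gm27000 at 0.13. Malat1 was closest to Rps6kb2 at 0.08 and Zcchc7 at 0.15. The nearest to Neat1 were Slco1a4, a transporter of brain endothelium, at 0.39 and Gm3764 at 0.42, and the nearest to Snhg1 were Lama5 at 0.18 and Flt1, a VEGF receptor of endothelium, at 0.19. Gas5 lay nearest to A230057D06Rik and Snrnp48, both at 0.27, Rmst to Tarbp2 and Itgb4, both at 0.06, and Pantr1 to Faim2 and Ddx6, both at 0.01. With 4 libraries, many genes lie close to any profile, and the distances are a description only.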

How the data were processed

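fosTRAP-seq libraries from 2 NSD and 2 SD pools were made with a stranded total RNA kit after ribosomal RNA depletion. The authors aligned reads with STAR 2.7.8a to mm39 and deposited estimated counts from the Partek Flow expectation-maximization model with Ensembl release 110, without normalization, and 55.6% of genes hold a value that is not whole. Whether counting used strand is not given in the sources used here.

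Counts were rounded, and the 22338 genes whose count exceeded 5 in each library were fitted with edgeR 4.0.16 in R 4.3.3 (TMM scaling, quasi-likelihood test, condition only, Benjamini-Hochberg over all genes tested). Genes were called at an adjusted p below 0.05 when the fold change was above 1.2 either way. CPM used the TMM factors, and log2 values of single libraries a prior count of 2. Batch numbers in the labels equal the replicate numbers and pair the libraries. Same-numbered libraries deviated together with a correlation of 0.178 across genes. Nothing in the labels states that the pools differ beyond the animals and batch, so p-values measure the spread between these pools.

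Alternatives were the replicate block, DESeq2 1.42.0, its size factors in edgeR, TMM from protein-coding genes, library totals, no filter, filterByExpr, no fold threshold, longest transcript lengths and each library left out. Members, gene lists and tests were chosen with earlier results of these data known. Named were the 8 members, called genes of the lists, the 2 smallest p-values of a list with fewer than 2 calls, overlapping and nearest genes, and the 2 nearest profiles of each member. A few named genes were left out of the text. The marker lists of CA1, GABAergic, astrocyte, oligodendrocyte lineage, microglial and endothelial cells hold 8 or 10 genes each. Exons came from GENCODE M39 and promoter windows from RefSeq on GRCm38.p6.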

Additional observations from a re-analysis of the deposited data

How the results depend on the processing

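Over the 96 combinations of a member and an alternative, 85 kept direction and side of the threshold, 5 lost the call, 6 gained it and 0 changed sign. With the replicate block, given by the batch pairing, Malat1 (-0.80) and Gas5 (-1.11) were called, 5 members in all, with 28 of the 178 other genes of the lists against 12, and 1891 genes lower and 668 higher of all genes against 520 and 172. The block changed no other call among the members. DESeq2 called Gas5 (-1.04), and 1296 genes lower and 671 higher. Without a count filter, Neat1 (-1.32) and Snhg11 (-1.56) were no longer called, at adjusted p of 0.0507 and 0.0511, which left 1 member, 3 other genes of the lists, and 80 genes lower and 50 higher. With edgeR's filterByExpr, Neat1 (-1.34), Miat (-1.27) and Snhg11 (-1.57) all had an adjusted p of 0.0628, 0 members and 0 other genes of the lists were called, and 0 genes were lower and 1 higher. Scaling by library totals left 96 genes higher and 694 lower. DESeq2's size factors in edgeR gave 229 higher and 457 lower. The cause of these differences was not tested. Ordering by the longest transcript kept 5 of 8 members in place in NSD.

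Leaving out each library in turn leaves 1 library in a group, assumed to vary like the other group. The number of members called ran from 3 to 5, the 5 without SD 1, of other genes of the lists from 3 without NSD 1 to 22 without SD 1, of all genes lower from 78 without NSD 1 to 1955 without SD 1, and of all genes higher from 124 to 308, with 292 without SD 1 and 308 without SD 2. The log2 difference ran from -1.08 to -0.44 for Malat1 and from -1.61 to -0.66 for Gas5. For the called members it ran from -1.80 to -0.98 for Neat1, from -1.51 to -1.01 for Miat and from -1.96 to -1.15 for Snhg11. For the others it ran from -1.19 to -0.43 for Snhg1, from -0.55 to -0.04 for Rmst and from 0.08 to 0.10 for Pantr1.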
